A study of Rattus norvegicus with 4 samples.

Results

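miR-126 is a microRNA made in endothelial cells, the lining of blood vessels, and it was followed here through the probes for both arms of its precursor, miR-126 and miR-126*, in the infarcted rat heart. The members are the rat probes named rno-miR-126 and rno-miR-126* on the array, called miR-126 and miR-126* below. They are 2 of the 348 rat miRNA probes of the day 2 arrays and 2 of the 677 of the day 14 arrays.

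The arrays measured microRNAs (miRNAs) in heart tissue of male Wistar rats. Rats of the myocardial infarction (MI) groups had the chest opened from the side, the pericardium opened and a coronary artery (LAD in the labels) tied off, and rats of the sham groups had the same opening without the ligation. Hearts were taken at day 2 or day 14 after surgery, which gives 4 groups (MI day 2, sham day 2, MI day 14 and sham day 14), and each group had 1 array of RNA pooled from 3 rats. A single array per group leaves every difference without replicates, so none was tested. The ± values are standard errors (SE) over the 4 spots of a probe and hold nothing of the spread among rats or arrays. The RNA came from heart tissue and not from separated cell types, so fewer endothelial cells in the tissue and less miR-126 per cell cannot be told apart. The labels do not name the region of the heart, nor the rats' age. Every day 2 difference rests on a sham array labelled rat whose file header names an image with a mouse prefix, which was used as labelled.

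A miRNA is cut as a duplex from a hairpin, and either arm can then be loaded into the Argonaute protein, where bases 2 to 8 of the loaded strand, the seed, pair with target messenger RNAs. miR-126 lies in an intron of Egfl7, a gene for a protein secreted by endothelial cells, and is among the most abundant miRNAs of endothelium. In mouse and zebrafish the miR-126 strand represses Spred1 and Pik3r2, 2 inhibitors of signalling downstream of vascular endothelial growth factor, and loss of miR-126 impairs the integrity of vessels. In mouse endothelial cells the miR-126* strand represses Dlk1, an inhibitor of endothelial proliferation.

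Both arms are shown because the probes are told apart by these sequences, and miR-3567, the miRNA of the opposite strand, because its gene overlaps theirs. Sequences are RefSeq's, 5′ to 3′, with the seed in capitals, and both members matched a mature sequence.
miR-126: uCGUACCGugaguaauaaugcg
miR-126*: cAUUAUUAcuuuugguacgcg
miR-3567: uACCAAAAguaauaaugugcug
In the RefSeq build GRCr8, miR-126 is at chr3:29813219-29813240 and miR-126* at chr3:29813182-29813202, both on the plus strand. Their hairpin spans 73 bases at chr3:29813174-29813246 and lies inside the span of Egfl7, chr3:29802481-29814966, which is on the same strand. miR-3567 is at chr3:29813177-29813198 on the minus strand and covers 17 of the bases of miR-126*. The seeds of the arms, CGUACCG and AUUAUUA, differ from each other, and 0 other mature sequences among the 724 rat ones of the RefSeq table shared either. The closest sequence to miR-126 was that of miR-3567 (named rno-miR-126b in RefSeq), with 15 of 22 bases matching and a longest shared run of 10, whereas that closest to miR-126* was rno-miR-29a-5p, with 13 of 21. On the day 14 arrays the miR-3567 probe was not detected. Its spots were between -31.5 and -5 intensity units over background in the MI pool and between -30 and 78.5 in the sham pool, so this relative of miR-126 gave no measured signal of its own there.

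Depth on an array is set by signal over background and by the upper limit of the scanner. A spot counted as detected when its foreground exceeded its local background by over 2 SDs of that background. A probe needed 50% or more of its 4 spots to be so. At day 2, 199 rat probes were detected in the MI pool and 166 in the sham pool, and at day 14 the numbers were 214 and 173. The scanner limit saturated 11 rat probes in the MI pool and 16 in the sham pool at day 2, and 0 on either day 14 array. The median local background was 131 units in the MI pool and 322 in the sham pool at day 2, and 100 and 94 at day 14. The sham array of day 2 also held a dim set of spots, which is described with miR-126*. The days used different array generations, and 1 µg of RNA at day 2 against 500 ng at day 14, so levels were compared only within a day. Since no slide held more than 1 group, the effects of slide and group cannot be told apart.

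miR-126 was among the brightest miRNAs on all 4 arrays. At day 2 its 4 spots reached the scanner limit in both pools, at 65347 to 65373 units over background in the MI pool and 65169 to 65214 in the sham pool. Between 88% and 92% of the pixels of these spots were saturated in the MI pool and between 90% and 91% in the sham pool. The small offset between the pools is that of the local background, and no fold can be given for miR-126 at day 2.

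At day 14, with less RNA and a different array generation, miR-126 was within range. Its spots read 17755.5, 17071, 17822 and 16496 units over background in the MI pool, and 15354, 15989, 17773.5 and 17526 in the sham pool. The spots of the pools overlapped, and the means, 17286 and 16661 units, lay close together. miR-126 was rank 6 from the brightest among the detected rat probes of the MI pool and rank 2 in the sham pool, with 97.7% and 99.4% of the other detected probes dimmer. Ranks compare probes of different affinity and give no order of molecules.

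miR-126* was detected on all 4 arrays and was of upper middle brightness. At day 2 its spots read 6566.5, 8273, 8185 and 8959 units over background in the MI pool, and 15416, 15817.5, 13640 and 1779 in the sham pool. Of the sham spots 3 lay above every MI spot and the fourth lay below them all. At day 14 its spots read 999.5, 931, 1072.5 and 893.5 units in the MI pool and 924.5, 1147.5, 905 and 929.5 in the sham pool, which overlapped. At day 2 miR-126* was dimmer than 39 detected rat probes in both pools, and at day 14 than 66 in the MI pool and 43 in the sham pool.

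**Figure D1:**
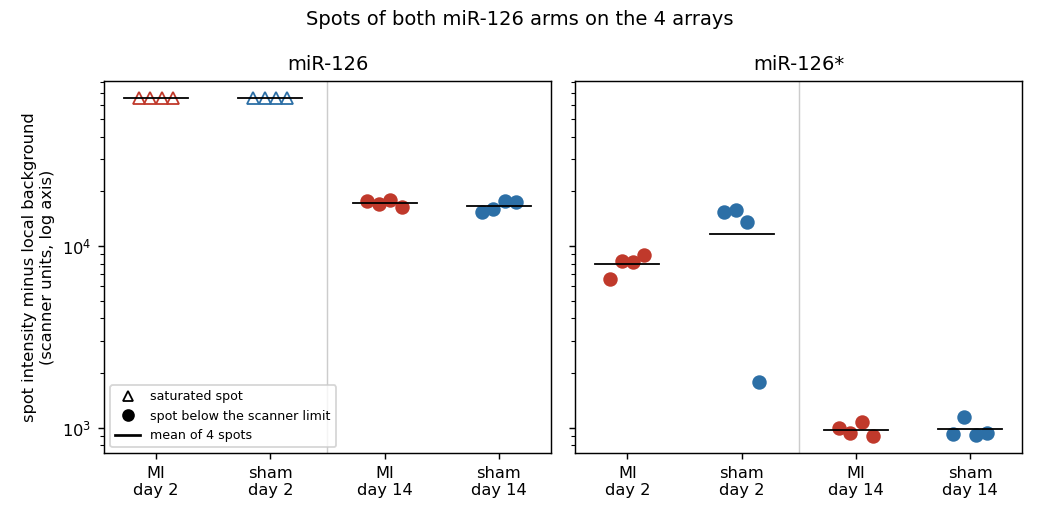
Intensity over local background (log axis, scanner units) of each of the 4 spots of miR-126 (left) and miR-126* (right) on the MI and sham arrays of day 2 and day 14, with lines at the mean of the 4 spots. Triangles are saturated spots: all day 2 spots of miR-126 sit at the scanner limit, the day 14 spots of MI and sham overlap for both arms, and 1 sham spot of miR-126* at day 2 (1779 units) lies far below the other 3.

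The dim sham spot of miR-126* at day 2 was part of a dim spot set. Over 150 detected rat probes, the fourth spot set of that array had a median deviation of -1.15 on the log2 scale, and its median background was 542 units against 278 to 344 in the other sets. The background of the dim miR-126* spot was 723 units, against 264 to 350 at the other 3. The values of miR-126* at day 2 are therefore given with and without that set.

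For the comparison of MI with sham, intensities were corrected for background, quantile normalized between the arrays of a day, converted to log2 and averaged over the spots. A difference of 2-fold or more between the pools was called. At day 2 miR-126* averaged 13.16 in the MI pool and 13.05 in the sham pool, a difference of 0.11 ± 0.70 (SE over 4 spots a pool), or 1.08-fold higher, which was smaller than the spread of the spots. Without the dim spot set the difference was -0.45 ± 0.13, below 0 and within 2-fold. With all 4 spot sets kept and no normalization it was -0.26. The sign at day 2 therefore depends on the fourth spot set and on the processing, with 11 of 16 alternatives above 0 and 5 below. The 1 arm with a fold at day 2 was not past 2-fold, where 4.28% of the 187 rat miRNAs with a fold were higher in MI and 1.07% were lower.

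At day 14 both arms were lower in the MI pool after normalization and within 2-fold. miR-126 had spots of 13.92, 13.85, 13.98 and 13.78 in the MI pool and 14.04, 14.08, 14.30 and 14.28 in the sham pool, a difference of -0.29 ± 0.08 (sham 1.22-fold above MI). miR-126* had spots of 9.92, 9.82, 10.01 and 9.76 in the MI pool and 10.20, 10.48, 10.17 and 10.21 in the sham pool, a difference of -0.39 ± 0.09 (sham 1.31-fold above MI). On this scale the spots of the pools did not overlap for either arm. None of the 2 arms was past 2-fold, where 11.7% of the 230 rat miRNAs with a fold were higher in MI and 3.48% were lower.

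The difference from sham depended on how the arrays were scaled. Before normalization the spots of both arms overlapped and the differences were 0.05 for miR-126 and -0.01 for miR-126*, so the sign of miR-126 turned. On that scale the median of the 157 rat miRNAs measured on both day 14 arrays was 0.46, and after quantile normalization it was 0.24. Spike-in control probes stood 0.12 higher in MI (44 probes) and small nuclear, nucleolar and ribosomal RNA probes 0.39 (13 probes, -0.13 to 1.04). With the arrays shifted by the spike-ins the arms were at -0.07 and -0.14, and with the shift by small RNAs, chosen after seeing the data, at -0.34 and -0.40. The files hold no measure of total miRNA per amount of tissue, so which scale stands for the tissue was not tested.

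**Figure D2:**
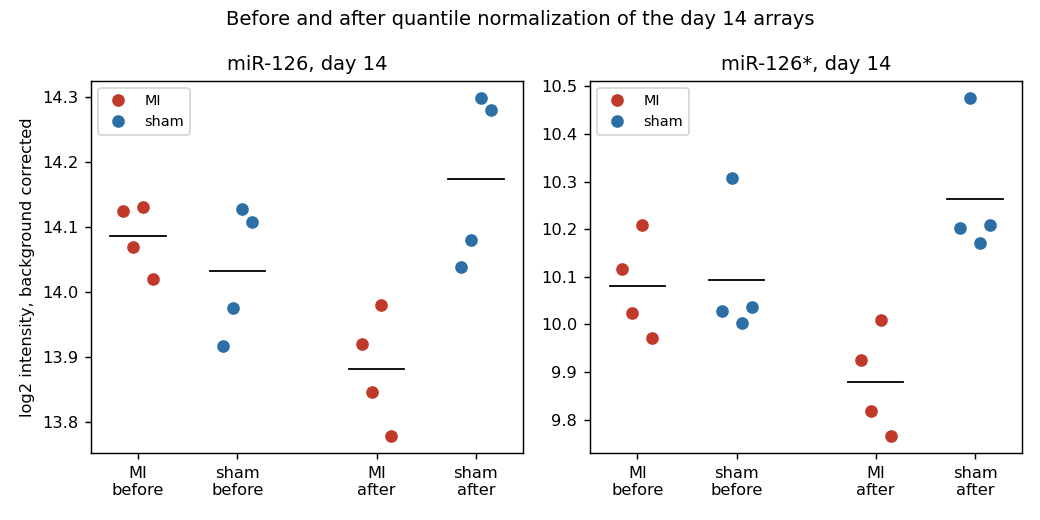
Log2 intensity of each spot of miR-126 (left) and miR-126* (right) on the day 14 MI (red) and sham (blue) arrays, before and after quantile normalization, with lines at the means. Before normalization the MI and sham spots overlap, and after it all 4 MI spots lie below all 4 sham spots for each arm.

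Relative to the other miRNAs of the same arrays, both arms at day 14 were below the median under each way of processing run. miR-126 was 0.53 and miR-126* 0.62 below the median of the 157 miRNAs measured on both arrays, on the log2 scale. Of the other 156, 28 had a lower difference than miR-126 (17.9%) and 26 a lower one than miR-126* (16.7%). Of the 17 ways of processing, 4 (no normalization and the 3 shifts of whole arrays) give the same distance by construction, which leaves 14 distinct ones, and over these miR-126 lay 0.41 to 0.72 and miR-126* 0.48 to 0.87 below the median. After quantile normalization both arms lay below the lower quartile of the 157, -0.15, and far from the ends at -1.74 and 3.45. At day 2 miR-126* was 0.02 above the median of 147 miRNAs, with 52.7% of the others lower. Without the dim spot set it was 0.34 below the median, with 8.90% lower, and with the median of the spots 0.24 below, with 17.1% lower. Those were the low end: miR-126* at day 2 was below the median under 4 of the 17 ways of processing. The highest was 0.31 above, with local background subtracted.

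**Figure D3:**
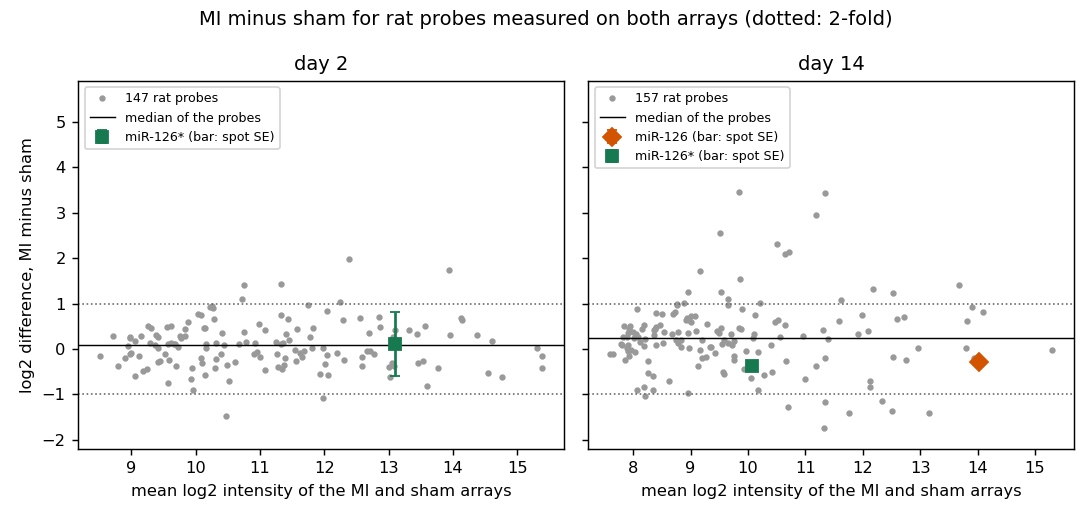
Log2 difference of MI minus sham (vertical axis) against mean log2 intensity (horizontal axis) for the rat probes measured on both arrays of day 2 (147 probes, left) and day 14 (157 probes, right). Bars on the arms are the spot SE, the solid line is the median of the probes and dotted lines mark 2-fold: miR-126* sits at the median at day 2 with a wide bar (0.11 ± 0.70), and both arms sit below the median at day 14.

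The ratio of the arms tells whether both strands of the duplex moved together. In its change between pools each probe's own brightness drops out, as far as normalization treats bright and dim probes alike. At day 14 the signal of miR-126 was 17.7 times that of miR-126* in the MI pool and 17.1 times in the sham pool (ratio of mean intensities over background, a ratio of probe signals and not of molecules). On the normalized log2 scale the gap between the arms was 4.0 in MI and 3.91 in sham, a change of 0.09 ± 0.12, within the error of the spots. No normalization and the 3 shifts of whole arrays all give 0.07, since a shift cancels in the gap. Over the 13 distinct alternatives the change ran from -0.06 with cyclic loess to 0.37 with quantile normalization over all 4 arrays, and 11 were above 0. At day 2 miR-126 was saturated, so the change of the gap cannot be given. Over the 3 spot sets other than the dim one, the signal of miR-126 was at least 8.52 times that of miR-126* in MI and at least 4.36 times in sham.

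The authors' deposited table gives log2 values with a background correction and centring that are not given in the sources used here. For miR-126 the authors' deposited table holds 15.87 in MI and 15.99 in sham at day 2, and 13.75 in MI and 14.35 in sham at day 14. For miR-126* the authors' deposited table holds 13.02 in MI and 13.04 in sham at day 2, and 9.48 in MI and 10.38 in sham at day 14. The day 14 differences of that table, -0.60 and -0.89, have the sign of the normalized scanner values and are larger. Against the scanner values the table is stretched, by a slope of 1.16 for the MI array and 1.24 for the sham array at day 14.

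**Figure D4:**
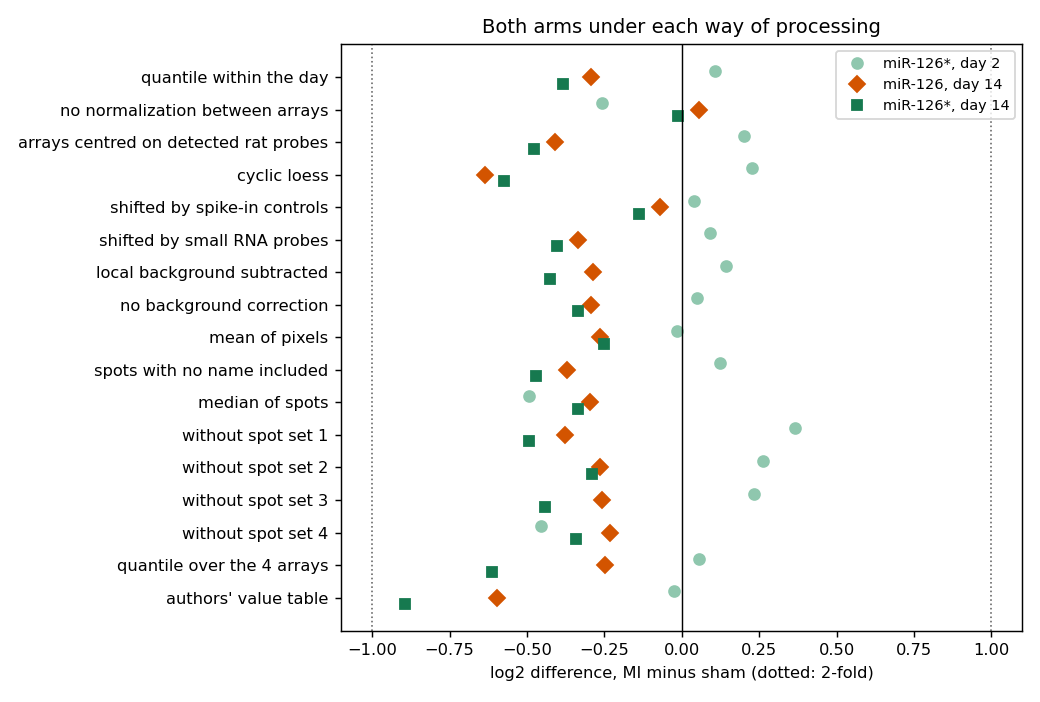
Log2 difference of MI minus sham for miR-126* at day 2 and for miR-126 and miR-126* at day 14 under the processing used here (top) and 16 alternatives, with dotted lines at 2-fold. No point passes 2-fold, the day 14 values are below 0 except miR-126 without normalization (0.05), and the day 2 values of miR-126* lie on both sides of 0.

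By the rule of smallest distance in the MI minus sham difference, the miRNAs closest to miR-126 at day 14, among 155 candidates, were miR-331* at -0.26, miR-30a at -0.26 and let-7b at -0.25. For miR-126*, over both days and 90 candidates, they were miR-181b at -0.11 and -0.54, miR-145 at -0.06 and -0.15, and miR-300-5p at -0.20 and -0.21 (day 2 and day 14). miR-145, which turned to 0.27 at day 14 without normalization, is abundant in vascular smooth muscle, the other cell layer of the vessel wall. These likenesses rest on 1 or 2 differences, and the day 14 value of miR-181b has an error of 0.76. Those of miR-126* use its day 2 difference of 0.11, which was -0.45 without the dim spot set.

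Other miRNAs with a described role in endothelial cells or vessel growth were set beside the arms as a list of 27 names. At day 14 22 of their 27 probes had a fold and 5 were not detected. Of the 22, 3 were past 2-fold higher and 0 lower, where 11.7% of all 230 rat miRNAs with a fold were higher and 3.48% lower, so the count was near that share. Of the 22, 6 were detected in the MI pool only, and their bounds cannot fall below 0. The 16 measured on both arrays had a median of 0.46, against 0.24 over all 157 such miRNAs, and 1 of them was past 2-fold higher. The 3 were miR-222, at least 4.87-fold higher, miR-221, at least 2.31-fold higher (2 miRNAs of one cluster that repress KIT in human endothelial cells, both bounds because sham was not detected), and miR-27b, at 1.08 ± 0.03 log2. The bound of miR-221 was under 2-fold with the arrays centred on rat probes (0.74 log2) and with the small RNA shift (0.81 log2), and past 2-fold under the other 15 ways of processing. miR-378 was at -0.71 ± 0.08 (-0.06 without normalization) and miR-322 at -0.05 ± 0.08 (0.35 without normalization). The other 14 measured on both arrays were above 0, as were 106 of all 157.

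At day 2, 19 of the 28 probes of these miRNAs had a fold, 7 were not detected and 2 were saturated. Of the 19, 2 were past 2-fold higher and 0 lower, where 4.28% of all 187 were higher and 1.07% lower. The 17 measured on both arrays had a median of 0.16, against 0.09 over all 147. miR-222 was at 1.42 ± 0.46, and at 1.10 without the dim spot set. miR-10a-5p, which restrains inflammatory signalling in human endothelial cells, was at 1.10 ± 0.86, and at 0.46 without that set. Without normalization the median of the 19, bounds included, was -0.16, against -0.46 over the 147 measured on both arrays. On that scale 0 of the 19 were past 2-fold higher, where 4 of all 189 rat miRNAs with a fold were.

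In the shorter list of endothelial-enriched miRNAs, 4 of the 8 probes with a fold at day 14 were measured on both arrays, the 2 arms, miR-151 and miR-100. miR-151 was at 0.96 ± 0.44, and ran from 0.34 to 1.79 over the 17 ways of processing, past 2-fold under 8 of them. miR-100 was at 0.13 ± 0.63, an error that exceeds the value. miR-100 was below 0 under 8 of the 17 ways of processing, down to -0.29, so it does not differ in sign from the arms in a stable way. The other 4, miR-222, miR-221, miR-10a-5p and miR-10b, were detected in the MI pool only and have bounds, which cannot fall below 0. miR-221 and miR-222 are also made in smooth muscle and other proliferating cells, so the list is not one of endothelial miRNAs alone.

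Probes of heart muscle, of fibroblasts and smooth muscle and of leukocytes had members past 2-fold at day 14, which the arms and the erythroid probes did not. Over all 230 rat miRNAs with a fold, 11.7% were past 2-fold higher and 3.48% lower. Of 6 heart muscle probes with a fold, 4 were past 2-fold lower and 1 was past 2-fold higher, with a median of -1.26. miR-133a was at -1.42 ± 0.06 and miR-133b at -1.41 ± 0.04, whereas miR-208b-3p, from the slow myosin gene Myh7, was at 2.55 ± 0.06. Without normalization and with the spike-in shift 0 of these 6 were past 2-fold lower, with medians of -0.67 and -0.80. Of 5 fibroblast and smooth muscle probes, 3 were past 2-fold higher, with a median of 2.10. Of 4 leukocyte probes, 3 were past 2-fold higher (1 of them a bound) and 1 lower (miR-150, of lymphocytes, at -1.74 ± 0.13), with a median of 1.36. Both erythroid probes lay near 0 after quantile normalization (median 0.11). Their median was 0.67 without normalization and 0.55 with the spike-in shift, where that of the arms was 0.02 and -0.10.

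At day 2 the leukocyte median was 1.35, with 2 of 4 past 2-fold higher, where 4.28% of all 187 were. The fibroblast and smooth muscle median was -0.02 (4 probes) and the erythroid median 0.30 (2 probes). For heart muscle, 3 of 5 probes were saturated, and the other 2 had a median of 0.42. Without the dim spot set these medians were 1.10 for leukocyte, -0.12 for fibroblast and smooth muscle, -0.05 for erythroid and -0.20 for heart muscle probes. The 2 arms are the endothelial markers of this comparison. They were detected on all 4 arrays, as were miRNAs that define heart muscle, and the part that shifts in the other cell types play in the position of the arms was not tested.

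**Figure D5:**
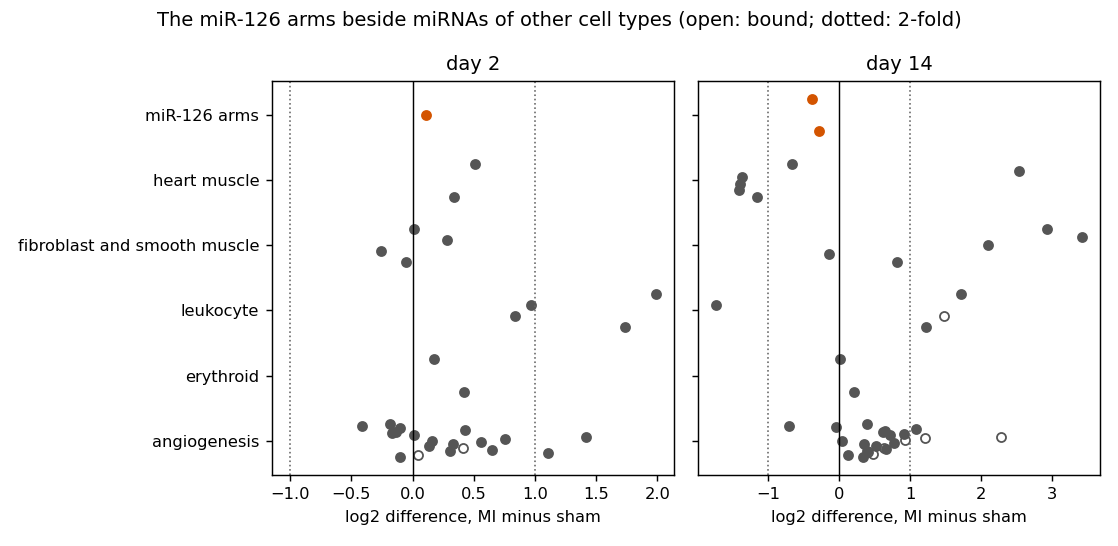
Log2 difference of MI minus sham at day 2 (left) and day 14 (right) for each probe of the miR-126 arms, of 4 other cell types and of the angiogenesis list, with open points for bounds and dotted lines at 2-fold. At day 14 the arms are at -0.29 and -0.39, while 4 of 6 heart muscle probes are past 2-fold lower and 1 (miR-208b-3p, 2.55) is past 2-fold higher. Of 5 fibroblast and smooth muscle probes, 3 are past 2-fold higher. The erythroid probes are nearer 0 than the arms on this quantile-normalized scale, but not without normalization or with the spike-in shift.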

How the data were processed

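Hy3-labelled RNA was hybridized to miRCURY LNA arrays (version 11.0 with miRBase 12.0 names at day 2, generation 6 with miRBase 16.0 names at day 14), per the file headers and labels. Groups were read from the sample titles and treatment characteristics, because the treatment protocol text is identical on all 4 samples and describes the sham surgery of day 2. Per the file headers, the authors scanned Hy3 and a further channel and quantified spot intensity and local background with Mapix 4.5.0 at 5 µm pixels. Saturated pixels per spot are given as a percent in the deposited files. The deposited value table holds log2 values of unstated processing, used as an alternative.

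Median foreground and background were combined with normexp (offset 50, fitted on all spots) in limma 3.58.1 and R 4.3.3. Named spots other than controls were quantile normalized within a day, and log2 values were averaged over 4 spots. Saturated probes (50% or more of spots at the scanner limit) give a bound, or no fold. A probe detected on 1 array gives a bound, its bright mean against the higher of its own dim mean and the lowest mean of detected named probes of the dim array.

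The members, lists and alternatives were chosen with earlier results of these data known. After the first values were seen, spots with no name (933 per day 2 array and 1000 per day 14 array) and small RNA probes were left out of the normalization. With background subtraction, values were normalized before those at or under 0 were dropped, and for a spot set left out only the kept sets were normalized, both also decided then. miRNAs named are the arms, the 3 closest to each by difference, and list members. The calculation was tested on simulated arrays, both built from the MI scan of a day, where changes of bright probes were recovered. The simulated rises and falls were balanced and all past 2-fold, and no spot set was dim. The simulation therefore cannot tell how well differences as small as those of the arms, or unbalanced changes, are recovered. Dim probes were not scored there. Sequences and positions are from RefSeq tables (GRCr8).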

Additional observations from a re-analysis of the deposited data

Results flagged for a closer look

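miR-126* had differences of opposite sign on the 2 days, 0.11 at day 2 and -0.39 at day 14 (log2, MI minus sham). The difference between the days was not tested. Leaving out the fourth spot set, which was dim on the day 2 sham array only, gave -0.45 at day 2 and -0.34 at day 14.

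The red scanner channel, for which no dyed sample is named in the sources used here, held signal at the miR-126 spots above that of empty spots, whose median was 0 units. At day 14 the median over the 4 spots was 36 units in the MI pool (35 to 45) and 22.5 in the sham pool (21 to 23), and these did not overlap. At day 2 it was 267.5 units in the MI pool (196 to 295) and 431.75 in the sham pool (390 to 472). Per 1000 units of Hy3 signal, miR-126 had 2.07 units in the MI pool and 1.34 in the sham pool at day 14. The median of the rat probes between 8000 and 35000 units of Hy3 signal, miR-126 included, was 1.62 (15 probes) in MI and 1.25 (9 probes) in sham. The red channel entered no comparison.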

How the results depend on the processing

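Neither arm passed 2-fold under any of the 16 alternatives with a value, 2 of which (the shift by small RNA probes and the inclusion of spots with no name) were chosen after seeing the data. miR-126 at day 14 was below 0 under 15 of the 16, at 0.054 without normalization, -0.070 with the spike-in shift, -0.63 with cyclic loess and -0.60 in the authors' deposited table. miR-126* at day 14 was below 0 under all 16, at -0.014 without normalization, -0.14 with the spike-in shift, -0.57 with cyclic loess, -0.61 with quantile normalization over all 4 arrays and -0.89 in the authors' deposited table. miR-126* at day 2 was above 0 under 11 and below 0 under 5, from -0.49 with the median of spots to 0.37 without spot set 1. Leaving out each spot set in turn gave -0.38 to -0.23 for miR-126 at day 14, -0.49 to -0.29 for miR-126* at day 14, -0.45 to 0.37 for miR-126* at day 2 and 0.03 to 0.18 for the change of the gap at day 14, which was 0.37 with quantile normalization over all 4 arrays. With saturated spots kept at their value, miR-126 at day 2 was at 0.06 and the change of the gap at -0.05. No paired analysis was possible because each group had 1 array.

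The number of rat miRNAs past 2-fold higher at day 2, 8 as reported, was 4 without normalization, 5 with the spike-in shift, 5 with the small RNA shift, 4 with the median of spots, 13 and 14 without spot sets 1 and 2, 5 with quantile normalization over all 4 arrays and 25 in the authors' deposited table. The number lower at day 2, 2 as reported, was 23 without normalization, 6 with centring on rat probes, 1 with cyclic loess, 10 with the spike-in shift, 8 with the small RNA shift, 12 with local background subtracted, 1 over all 4 arrays, 19 in the authors' deposited table and 4 over all probes, detected or not. At day 14 the number higher, 27 as reported, was 42 without normalization and 58 with local background subtracted. The number lower, 8 as reported, was 1 without normalization, 21 with centring, 13 with cyclic loess, 4 with the spike-in shift, 15 with the small RNA shift, 22 with local background subtracted, 14 without spot set 1, 33 in the authors' deposited table and 14 over all probes. The causes were not tested. Saturation at day 2 limits miR-126 to its presence.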
